A study of Mus musculus with 10 samples.

Results

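Neuropeptide and peptide-hormone receptors were examined in mouse sarcomas as a set of 37 genes, taken by symbol from a list of 14 receptor families that includes the orexin receptors. All 37 were found among the 56750 features of the count table. Bulk RNA-seq compared tumors of the dFLEx CDS model with KP sarcomas. CIC::DUX4 sarcoma (CDS) is an aggressive soft tissue sarcoma driven by a fusion of the CIC repressor with DUX4. The dFLEx mice (genotype label dFLEx CDS +/-) carried an HA-tagged CIC::DUX4 cassette in Rosa26 behind a CAG promoter, which is active in most cell types. Cre turned the CIC exon and FLPE the DUX4 exon into the promoter's direction, so both recombinases were needed for expression of the fusion. Both recombinases were delivered as pCAG plasmids by electroporation into hind limb muscle, so the tumors lay among myofibers. The KP mice carried p53fl/fl, from which Cre removes p53, and had no CIC::DUX4. Their tumors therefore differed from dFLEx tumors in every driver allele, and the drivers cannot be told apart from the mouse lines. The labels gave no ages. The 3 dFLEx tumors (170019, 170024 and 170025) and 2 KP tumors (3800 and 3802) were compared, with the tumor as the replicate.

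The receptors of this set are G protein-coupled receptors that sit in the cell membrane and answer to short peptides cut from larger precursors. Some couple to Gq and raise calcium, as the orexin, bradykinin, tachykinin, vasopressin 1a and angiotensin 1 receptors do. Others couple to Gs and raise cyclic AMP, as the melanocortin, CRH, VIP and PACAP receptors do, or to Gi and lower it, as the opioid, somatostatin and NPY receptors do. Most are known from neurons and endocrine cells, while the angiotensin, bradykinin and vasopressin 1a receptors are also known from vessels, fibroblasts and inflamed tissue.

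CIC binds short octamers, and the fusion keeps its DNA-binding part, so the start regions of the receptor genes were searched for TGAATGAA, TGAATGGA, TCAATGAA and TCAATGGA on both strands. The windows ran from 250 bases before to 50 bases after a transcript start in the RefSeq table (built on GRCm38.p6), which held 29 of the 37 genes with 36 windows. Among these 29 genes, 1 (Hcrtr1) held an octamer, in 2 of its 3 windows, beside 4.45% of the 27025 genes in that table. The stretches are shown because Hcrtr1 was the receptor gene called between the groups. They were read from GRCm39 in the direction of the gene, with the octamer in capitals. The first lies at chr4:130033095-130033124 on the minus strand, 158 bases upstream of 1 RefSeq start. The other lies at chr4:130032417-130032446 on the minus strand, 91 bases upstream of another RefSeq start.
Hcrtr1 first octamer: cagtggacgcgTGAATGGAggtggatggaa
Hcrtr1 other octamer: ggccggatttaTGAATGGAgagcggcctgc
When the Ensembl canonical start of each gene on GRCm39 was used, the first of these octamers lay 39 bases downstream of the Hcrtr1 start, inside the first exon. With those starts 2 of 37 genes held an octamer, Hcrtr1 and Crhr1, beside 3.65% of 21630 protein-coding genes. The Crhr1 stretch, at chr11:104022947-104022976 on the plus strand and 206 bases upstream of that start (position 104023164, which lies before the first exon counted in the table), is shown because Crhr1 was lower in dFLEx tumors while Hcrtr1 was higher.
Crhr1 octamer: ccaaaaacgaaTGAATGAAtgagtgaacga
These matches are letters in a window, and binding was not measured here.

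Levels are given as CPM (the share of a tumor's counts, scaled by TMM to a common total), on the summed counts of the duplicate libraries of each tumor. Libraries held 20503474 to 46302223 counts, and 3 counts in a tumor were worth 0.0378 to 0.122 CPM. KP 3802 stood apart. It had 1 library, the lowest total and the most features with a count (36904, beside 24280 to 31768 in the other libraries). Genes of 1397 olfactory and vomeronasal receptors, sensory genes of the nose, averaged 0.107 CPM per kilobase in KP 3802 and 0.00269 to 0.0239 in the other tumors. This level is called background. Fitted values of the receptor set are also given without KP 3802 where that changes sign or call or moves them by over 1.5 times. For precursors and other genes outside the set, no fitted value without KP 3802 is given. How far those values rest on KP 3802 was not examined. The fusion construct, a feature of its own in the table, was at 105, 202 and 423 CPM in dFLEx tumors 170019, 170024 and 170025, at 0 in KP 3800 and at 0.244 CPM in KP 3802 (6 counts). The 7 CIC::DUX4 target genes named by the study summed to 6050 to 7610 CPM in dFLEx tumors and 401 to 528 CPM in KP tumors. In bulk tumors, fewer cells of a type and less RNA per cell cannot be told apart.

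Across the set, most receptor genes were barely detected. In all 5 tumors, 20 of 37 genes stayed under 1 CPM. A level of 1 CPM was reached by 8 genes in every dFLEx tumor (Hcrtr1, Galr2, Tacr1, Crhr2, Avpr1a, Bdkrb1, Bdkrb2 and Agtr1a). It was reached by 6 genes in both KP tumors (Mc4r, Crhr1, Vipr2, Avpr1a, Bdkrb1 and Bdkrb2). The 37 genes summed to 89.4, 78.6 and 152 CPM in dFLEx tumors 170019, 170024 and 170025, and to 109 and 36.3 CPM in KP tumors 3800 and 3802. The sums overlapped between the groups, but different genes made them up. Hcrtr1, Agtr1a and Avpr1a together gave 61.2%, 49.1% and 83.3% of the sum in the dFLEx tumors and 1.31% and 6.4% in the KP tumors. In KP 3800, Bdkrb2 and Adcyap1r1 gave 80.3%, against 11.4% in KP 3802. More than 3 times the background level was reached by 20, 21 and 28 genes in the dFLEx tumors, by 25 in KP 3800 and by 10 in KP 3802.

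**Figure D1:**
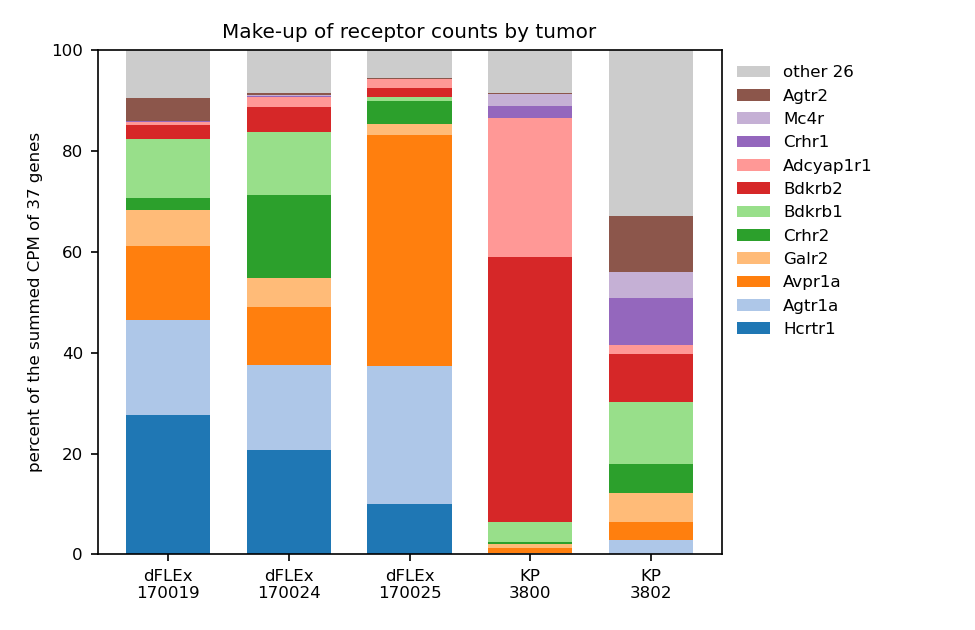
Share of the summed CPM of the 37 receptor genes (vertical axis, percent) in each of the 5 tumors, with 11 genes in color and the other 26 in grey. Hcrtr1, Agtr1a and Avpr1a fill 49.1% to 83.3% of the bars of the dFLEx tumors, whereas Bdkrb2 and Adcyap1r1 fill 80.3% of the bar of KP 3800.

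**Figure D2:**
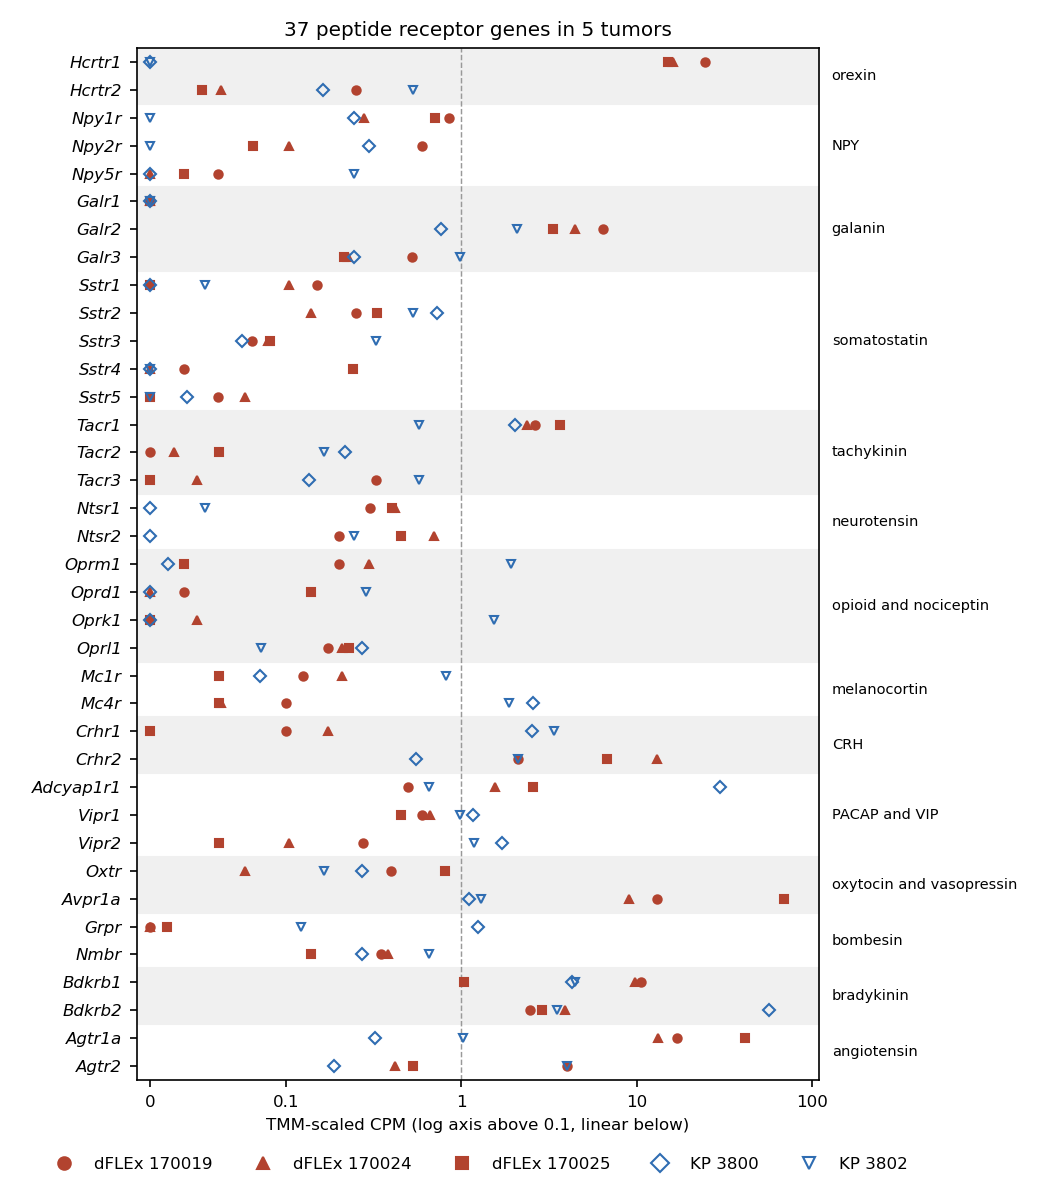
Level of each of the 37 receptor genes (rows, grouped by family) in each tumor, as TMM-scaled CPM on an axis that is logarithmic above 0.1 and linear below. Filled symbols are dFLEx tumors, open symbols are KP tumors and the dashed line marks 1 CPM. Hcrtr1 lies at 15.1 to 24.7 in dFLEx tumors and at 0 in both KP tumors.

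The comparison of dFLEx with KP tumors asked which receptor genes differed between these groups of tumors. It was tested on all genes with edgeR, and p-values were adjusted over 24743 genes. Of the 37 receptor genes, 28 passed the filter on low counts and were tested, and a gene that passed through 1 high group had to differ. One receptor gene was called higher in dFLEx tumors (Hcrtr1) and 0 were called lower, beside 45 calls among all tested genes (0.182%). DESeq2 on the same tumor sums called 3 higher (Hcrtr1, Avpr1a and Agtr1a) and 4 lower (Mc4r, Crhr1, Adcyap1r1 and Bdkrb2) of 36 fitted. The filter used for edgeR was left out there, and 1408 of 44382 fitted genes were called (3.17%). Some fitted genes, such as Hcrtr2 and Ntsr1, got no adjusted p from DESeq2, so this is not a share of genes tested there. Without KP 3802, edgeR called 1 higher (Hcrtr1) and 3 lower (Mc4r, Adcyap1r1 and Bdkrb2) of 30 tested, beside 414 of 25224 genes (1.64%), and without any other single tumor it called 0 in either direction. At an unadjusted p under 0.05, 4 of the 28 were higher and 5 lower, where 5.65% of all tested genes were higher and 4.93% lower. Every dFLEx tumor was above both KP tumors for 7 of the 28 (Hcrtr1, Npy1r, Galr2, Tacr1, Ntsr1, Avpr1a and Agtr1a), where 13.7% of all tested genes were. Every dFLEx tumor was below both KP tumors for 6 of the 28 (Sstr2, Tacr2, Mc4r, Crhr1, Vipr1 and Vipr2), where 11.7% of all tested genes were. In KP 3802, 4 of these 6 were at 0.675 (Tacr2), 1.58 (Vipr1), 2.31 (Sstr2) and 2.47 (Vipr2) times the background. The median log2 fold change of the 28 was -0.49, and that of all tested genes was -0.18.

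**Figure D3:**
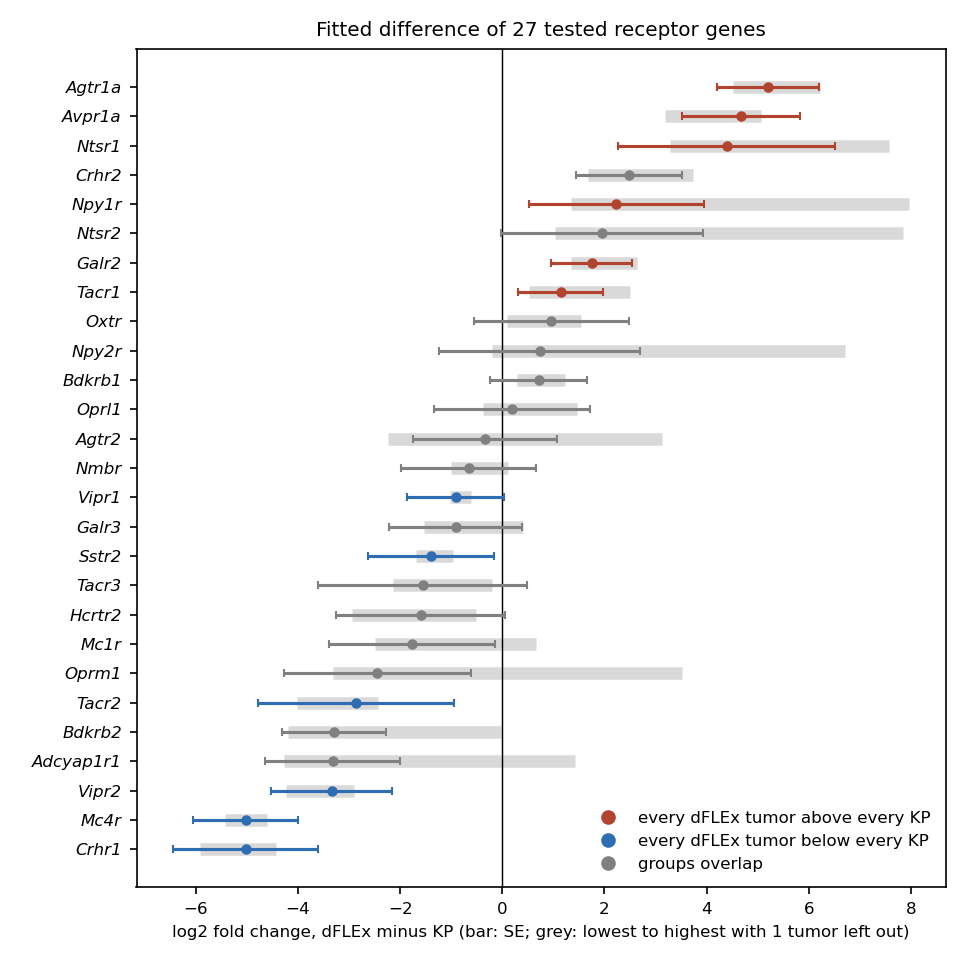
Fitted log2 fold change of dFLEx minus KP tumors (horizontal axis) for 27 tested receptor genes, with 3 dFLEx and 2 KP tumors. Points and bars are the edgeR value and its standard error, grey bands run from the lowest to the highest value with 1 tumor left out, and colors mark whether the tumors of the groups overlap. Hcrtr1 is left out because its KP counts were 0. Npy1r, Npy2r, Ntsr1 and Ntsr2 were at 0 in 1 KP tumor, so the right ends of their bands depend on the prior count.

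Of the orexin receptors, Hcrtr1 was the receptor gene with the clearest difference. It encodes orexin receptor 1, a Gq-coupled receptor that answers to orexin A and is known from neurons that govern wakefulness and feeding. Its counted exons span chr4:130024010-130033152 on the minus strand of GRCm39 and shared no base with another feature. Hcrtr1 was at 24.7, 16.2 and 15.1 CPM in dFLEx tumors 170019, 170024 and 170025 and at 0 in both KP tumors. The duplicate libraries held 558 and 434, 503 and 434, and 684 and 511 counts in the dFLEx tumors, while the 3 KP libraries held 0. Each dFLEx tumor was therefore above each KP tumor, and the dFLEx tumors lay within 1.64-fold of each other (18.7 ± 5.25 CPM, SD, n = 3). Over the 3 dFLEx tumors, Hcrtr1 was highest where the construct was lowest (170019). The part of the construct in the Hcrtr1 level was not tested. Against a floor of 3 counts in KP 3802, worth 0.122 CPM, the lowest dFLEx tumor was at least 123-fold higher and the dFLEx mean at least 153-fold higher. The difference passed the threshold (edgeR, adjusted p = 0.0426). The call was lost without dFLEx 170019 (edgeR adjusted p = 0.179), without 170024 (0.145) and without 170025 (0.0544). It was also lost without KP 3800 and kept without KP 3802, each of which leaves 1 KP tumor. Hcrt, the precursor of orexins A and B, was at 0, 0 and 0.0126 CPM in dFLEx tumors and at 0 and 0.244 CPM in KP tumors. In each dFLEx tumor the precursor was thus under the level of 3 counts, where the receptor was well above it.

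Hcrtr2, the other orexin receptor, was low in both groups. It was at 0.249, 0.052 and 0.0378 CPM in dFLEx tumors and at 0.161 and 0.528 CPM in KP tumors, with overlapping groups (log2 fold change -1.60 ± 1.66 SE, edgeR adjusted p = 0.879). Without KP 3802 the log2 fold change was -0.52. Its level in KP 3802 was 0.803 times the background of that tumor.

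Of the angiotensin receptors, Agtr1a separated the groups and Agtr2 did not. Agtr1a encodes the AT1 receptor, through which angiotensin II contracts vessels and drives aldosterone release. Agtr1a (chr13:30520424-30566850, plus strand, GRCm39) was at 17.0, 13.3 and 41.7 CPM in dFLEx tumors and at 0.322 and 1.02 CPM in KP tumors. The groups did not overlap, with a gap of 13.1-fold between the nearest tumors. On average the level was 24.0 ± 15.4 CPM (SD, n = 3) against 0.669 ± 0.490 CPM (SD, n = 2). The fitted log2 fold change was 5.20 ± 1.00 SE, which missed the threshold after adjustment (edgeR, adjusted p = 0.104; DESeq2 on tumor sums, adjusted p = 2.96e-07). Without KP 3802 the log2 fold change was 6.22. Agtr2, the AT2 receptor that is abundant in fetal mesenchyme, was at 4.01, 0.416 and 0.529 CPM in dFLEx tumors and at 0.188 and 3.98 CPM in KP tumors. One tumor of each group was high, and the groups overlapped (log2 fold change -0.33 ± 1.41 SE, adjusted p = 0.976). Without KP 3802 the log2 fold change of Agtr2 was 3.13. Agt, the precursor of the angiotensins, was at 4.05, 4.32 and 2.36 CPM in dFLEx tumors and at 0.725 and 0.691 CPM in KP tumors (log2 fold change 2.33 ± 0.77 SE, adjusted p = 0.31).

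Of the vasopressin and oxytocin receptors, Avpr1a was the highest per kilobase of exon of all 37 genes in dFLEx tumors, at a mean of 11.5 CPM per kilobase, ahead of Agtr1a at 8.61 and Hcrtr1 at 7.15. Their ranges over the dFLEx tumors overlapped, so the order of these 3 does not exceed the spread. Avpr1a encodes the V1a receptor of vessel wall and liver. The gene (chr10:122284404-122289357, plus strand, GRCm39) was at 13, 9.07 and 69.8 CPM in dFLEx tumors and at 1.10 and 1.30 CPM in KP tumors. Tumor 170025 was far above the other dFLEx tumors, and all 3 were above both KP tumors, the lowest by 6.97-fold. The log2 fold change was 4.67 ± 1.15 SE (edgeR, adjusted p = 0.175; DESeq2 on tumor sums, adjusted p = 4.7e-05). Without 170025 it was 3.19 (edgeR adjusted p = 0.229), and without KP 3802 it was 4.81. Tumor 170025 also had the highest summed levels of fibroblast markers (9020 CPM, beside 2720 and 5090 in the other dFLEx tumors) and of pericyte and smooth muscle markers (1280, beside 1070 and 679). Among dFLEx tumors it was also highest for endothelial (594), Schwann cell (716), chondroid (2510), neuron (90.1) and mast cell markers (67.6). It was not highest for myocyte, macrophage, T cell and B cell markers. The construct was highest in 170025 as well. The part of these in the Avpr1a level was not tested. Oxtr, the oxytocin receptor, was at 0.398, 0.0694 and 0.806 CPM in dFLEx tumors and at 0.269 and 0.163 CPM in KP tumors, with overlapping groups (log2 fold change 0.96 ± 1.52 SE, adjusted p = 0.924). Avp was at 0.0498 CPM or less in each tumor.

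The galanin receptors are set beside spexin, since spexin is a known ligand of galanin receptors 2 and 3. Galr2 (chr11:116171765-116174764, plus strand, GRCm39) was at 6.47, 4.44 and 3.31 CPM in dFLEx tumors and at 0.766 and 2.07 CPM in KP tumors. The groups did not overlap, with a mean of 4.74 ± 1.60 CPM (SD, n = 3) against 1.42 ± 0.924 CPM (SD, n = 2). The log2 fold change was 1.75 ± 0.79 SE (edgeR, adjusted p = 0.504), and without KP 3802 it was 2.64. Galr3 was at 0.522, 0.225 and 0.214 CPM in dFLEx tumors and at 0.242 and 0.975 CPM in KP tumors, with overlapping groups and a log2 fold change of -0.91 ± 1.30 SE that was 0.41 without KP 3802. Galr3 shared 29.2% of its exonic bases with Gcat, and reads in shared bases were not counted, so its level is uncertain. Galr1 held no count in any tumor. Spx, the precursor of spexin, was the precursor with the largest difference. It was at 887, 1880 and 2560 CPM in dFLEx tumors and at 1.10 and 1.63 CPM in KP tumors (log2 fold change 10.35 ± 0.99 SE, edgeR adjusted p = 0.0248), and every dFLEx tumor was at least 546 times the higher KP tumor. Gal, the precursor of galanin, had a difference of the opposite sign, at 0.398, 2.18 and 0.655 CPM in dFLEx tumors and at 21.6 and 42.9 CPM in KP tumors (log2 fold change -4.89 ± 0.90 SE, edgeR adjusted p = 0.0936).

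**Figure D4:**
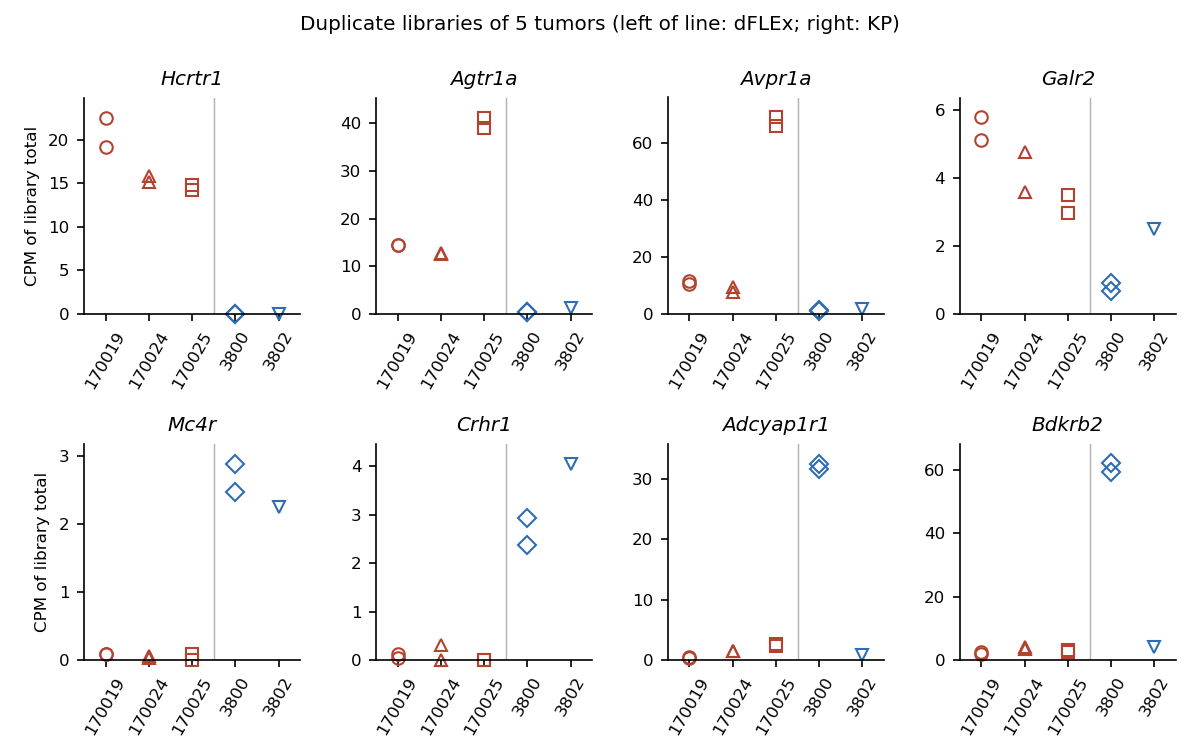
CPM of the library total (vertical axis, linear, from 0) of 8 receptor genes in the duplicate libraries of each tumor, with dFLEx tumors left of the line and KP tumors right of it, and 1 library for KP 3802. Duplicates of a tumor lie close together for Hcrtr1 (22.5 and 19.1 in 170019), while Avpr1a and Agtr1a are set apart by tumor 170025 and Adcyap1r1 and Bdkrb2 by KP 3800.

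The corticotropin-releasing hormone (CRH) receptors had fitted differences of opposite sign. Crhr1, through which the hormone CRH drives release of ACTH, was at 0.0995, 0.173 and 0 CPM in dFLEx tumors and at 2.54 and 3.37 CPM in KP tumors. The gene lies at chr11:104023681-104066349 on the plus strand of GRCm39. The KP tumors were above every dFLEx tumor by at least 14.6-fold (log2 fold change -5.02 ± 1.42 SE; edgeR, adjusted p = 0.226; DESeq2 on tumor sums, adjusted p = 0.00114). The value without KP 3802 was -4.80. Crhr2, the receptor of the urocortins and known from heart and skeletal muscle, was at 2.09, 13.1 and 6.81 CPM in dFLEx tumors and at 0.551 and 2.11 CPM in KP tumors. The groups overlapped, since 170019 was just below KP 3802 (log2 fold change 2.48 ± 1.03 SE, edgeR, adjusted p = 0.444). Crhr2 in KP 3802 was at 3.87 times the background. Without that tumor the groups did not overlap, and the log2 fold change was 3.74. All 9 myocyte markers had counts in every tumor, and they summed to 7770, 30900 and 8600 CPM in dFLEx tumors and to 1400 and 4100 CPM in KP tumors. The highest Crhr2 level and the highest myocyte sum were both in 170024, and the part of myofibers in the Crhr2 level was not tested. Crh itself was at 1.69, 2.01 and 2.24 CPM in dFLEx tumors and at 0.134 and 0.406 CPM in KP tumors (log2 fold change 2.91 ± 1.01 SE, adjusted p = 0.336).

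Of the melanocortin receptors, Mc4r was lower in every dFLEx tumor than in both KP tumors. It encodes the melanocortin 4 receptor, a regulator of appetite in the hypothalamus. Mc4r was at 0.0995, 0.052 and 0.0504 CPM in dFLEx tumors and at 2.55 and 1.87 CPM in KP tumors, with a gap of 18.8-fold between the nearest tumors. The log2 fold change was -5.02 ± 1.03 SE (edgeR, adjusted p = 0.117; DESeq2 on tumor sums, adjusted p = 0.000194). Without KP 3802 it was -5.23. In dFLEx tumors the level rested on 3 or 4 counts a tumor. Mc1r, the receptor of pigment cells, was at 0.124, 0.208 and 0.0504 CPM in dFLEx tumors and at 0.0806 and 0.813 CPM in KP tumors (log2 fold change -1.77 ± 1.62 SE, and 0.66 without KP 3802). Mc1r shared 17.9% of its exonic bases with Gm38092. Pomc, the precursor of the melanocortins, was at 13.4, 8.50 and 3.00 CPM in dFLEx tumors and at 0.242 and 1.54 CPM in KP tumors (adjusted p = 0.317).

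Among the PACAP and VIP receptors, the difference of Adcyap1r1 rested on KP 3800. Vipr1 and Vipr2 were above the dFLEx tumors in both KP tumors, but in KP 3802 they were at only 1.58 and 2.47 times the background. Adcyap1r1, the PACAP receptor of neurons and adrenal medulla, was at 0.498, 1.56 and 2.56 CPM in dFLEx tumors, at 30.1 CPM in KP 3800 and at 0.650 CPM in KP 3802. The KP tumors differed by 46.3-fold, and the groups overlapped (log2 fold change -3.32 ± 1.32 SE, edgeR, adjusted p = 0.42). Without KP 3800 the log2 fold change was 1.42, and without KP 3802 it was -4.27. KP 3800 also had the highest sum of 10 neuron markers, 835 CPM beside 230 in KP 3802 and 40.0 to 90.1 in dFLEx tumors, and the part of neurons in the Adcyap1r1 level was not tested. Vipr2 was at 0.274, 0.104 and 0.0504 CPM in dFLEx tumors and at 1.71 and 1.18 CPM in KP tumors. The groups did not overlap, with a gap of 4.31-fold between the nearest tumors (log2 fold change -3.34 ± 1.18 SE, edgeR, adjusted p = 0.351). Vipr1 was at 0.597, 0.659 and 0.453 CPM in dFLEx tumors and at 1.17 and 0.975 CPM in KP tumors (log2 fold change -0.91 ± 0.95 SE, adjusted p = 0.88). Neither Vip nor Adcyap1 reached 1 CPM in any tumor.

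The bradykinin receptors lie side by side on chromosome 12, Bdkrb2 at chr12:105529485-105561496 and Bdkrb1 at chr12:105569344-105571687, both on the plus strand of GRCm39. They were the receptor genes with the highest mean level per kilobase in KP tumors, at 7.98 CPM per kilobase for Bdkrb2 and 3.04 for Bdkrb1, although the mean of Bdkrb2 rested on KP 3800. Bdkrb2, the constitutive receptor of bradykinin, was at 2.46, 3.90 and 2.87 CPM in dFLEx tumors, at 57.0 CPM in KP 3800 and at 3.49 CPM in KP 3802. KP 3802 lay within the range of the dFLEx tumors, and the fitted difference rested on KP 3800 (log2 fold change -3.30 ± 1.02 SE, edgeR, adjusted p = 0.271, and -0.02 without KP 3800). Without KP 3802 it was -4.19. Bdkrb1, which injury and inflammation induce, was at 10.6, 9.85 and 1.03 CPM in dFLEx tumors and at 4.25 and 4.47 CPM in KP tumors. The KP tumors lay between the dFLEx tumors, which spread over 10.2-fold (log2 fold change 0.71 ± 0.95 SE, adjusted p = 0.907). Kng2, a precursor of bradykinin, was at 6.09, 4.47 and 3.58 CPM in dFLEx tumors and at 0.0806 and 1.30 CPM in KP tumors (log2 fold change 2.81 ± 1.17 SE, adjusted p = 0.447).

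The tachykinin and neurotensin receptors were low. Tacr1, the substance P receptor, was at 2.64, 2.38 and 3.64 CPM in dFLEx tumors and at 2.03 and 0.569 CPM in KP tumors. The dFLEx tumors were above both KP tumors, but by 1.17-fold at the closest (log2 fold change 1.14 ± 0.83 SE, adjusted p = 0.799, and 0.53 without KP 3802, where Tacr1 was at 0.821 times the background). Ntsr1 was at 0.299, 0.416 and 0.403 CPM in dFLEx tumors and at 0 and 0.0406 CPM in KP tumors, so the groups did not overlap at a low level (log2 fold change 4.39 ± 2.12 SE, edgeR, adjusted p = 0.556). Ntsr2 overlapped at 0.199, 0.694 and 0.453 CPM against 0 and 0.244 CPM. Both neurotensin receptors were at 0 in KP 3800, so no fold is given without KP 3802. Tacr2 and Tacr3 stayed at 0.569 CPM or less in every tumor, with log2 fold changes of -2.87 ± 1.92 SE and -1.56 ± 2.04 SE. The Tacr3 value was -0.20 without KP 3802.

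The NPY, somatostatin, opioid and bombesin receptors held few counts. Npy1r was at 0.846, 0.277 and 0.705 CPM in dFLEx tumors and at 0.242 and 0 CPM in KP tumors (log2 fold change 2.23 ± 1.71 SE, adjusted p = 0.814, and 1.34 without KP 3802). Npy2r overlapped between dFLEx (0.0756 to 0.597 CPM) and KP tumors (0 and 0.296 CPM), with a log2 fold change of 0.73 ± 1.96 SE that was -0.20 without KP 3802. Among the somatostatin receptors Sstr2 alone was tested, at 0.249, 0.139 and 0.328 CPM in dFLEx tumors and at 0.725 and 0.528 CPM in KP tumors (log2 fold change -1.39 ± 1.23 SE, adjusted p = 0.853). The opioid receptors Oprm1 and Oprk1 were highest in KP 3802, at 1.91 and 1.54 CPM, where they were at 0.0134 and 0 CPM in KP 3800 and at 0.295 CPM or less in dFLEx tumors. These levels in KP 3802 were 2.23 and 1.58 times the background of that tumor. The log2 fold change of Oprm1 was -2.45 ± 1.83 SE and was 3.51 without KP 3802. Oprl1, the nociceptin receptor, was at 0.0813 to 0.269 CPM in all 5 tumors (log2 fold change 0.19 ± 1.53 SE, and -0.38 without KP 3802). Nmbr overlapped, at 0.139 to 0.381 CPM in dFLEx and 0.269 and 0.650 CPM in KP (log2 fold change -0.66 ± 1.32 SE, and 0.12 without KP 3802), and it shared 15.6% of its exonic bases with another feature. Grpr, the receptor of gastrin-releasing peptide, was not tested. It was at 0, 0 and 0.0126 CPM in dFLEx tumors and at 1.24 and 0.122 CPM in KP tumors. Besides Grpr and Oprk1, the genes not tested were Npy5r, Galr1, Sstr1, Sstr3, Sstr4, Sstr5 and Oprd1, and each stayed at 0.325 CPM or less in every tumor.

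Other genes of peptide signaling were taken from lists of their own. Of 31 precursors, 19 were tested, and 1 was called higher (Spx) and 0 lower, beside 0.182% of all tested genes called. At an unadjusted p under 0.05, 8 precursors were higher and 2 lower, beside 5.65% and 4.93% of all tested genes. The median log2 fold change of the precursors was 2.17, and that of all tested genes was -0.18. The precursors with the highest level per kilobase over the tumors were Spx, Penk and Gal. Penk, the precursor of the enkephalins, was at 945, 285 and 102 CPM in dFLEx tumors and at 87.6 and 35.8 CPM in KP tumors (log2 fold change 2.85 ± 1.03 SE, edgeR adjusted p = 0.369). Its opioid receptors Oprd1 and Oprm1 stayed at 0.295 CPM or less in those dFLEx tumors. Grp was at 0.0498, 0.0173 and 0.0252 CPM in dFLEx tumors, at 20.0 CPM in KP 3800 and at 0.650 CPM in KP 3802 (log2 fold change -8.36 ± 1.51 SE, adjusted p = 0.092). Grp and its receptor Grpr were thus both highest in KP 3800.

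Of 40 further peptide receptors, 25 were tested and 0 were called by edgeR. At an unadjusted p under 0.05, 5 were higher and 2 lower, beside 5.65% and 4.93% of all tested genes. Their median log2 fold change was 0.19. Cckar, the cholecystokinin A receptor of pancreas and gallbladder, was at 33.2, 39.6 and 43.2 CPM in dFLEx tumors and at 0.0269 and 0.325 CPM in KP tumors (log2 fold change 7.97 ± 1.24 SE, edgeR adjusted p = 0.0744). Npy4r, the pancreatic polypeptide receptor, was at 0.995, 1.32 and 1.79 CPM in dFLEx tumors and at 0.0269 and 0 CPM in KP tumors (log2 fold change 6.13 ± 1.47 SE, adjusted p = 0.164). Gipr, an incretin receptor, was at 4.33, 7.13 and 13.3 CPM in dFLEx tumors and at 0.0269 and 0.528 CPM in KP tumors (log2 fold change 5.01 ± 1.34 SE, adjusted p = 0.204). The highest per kilobase were Aplnr at 7.94 CPM per kilobase, Pth1r at 6.97 and Cckar at 6.32.

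Of 29 genes of G protein signal transduction, all were tested and 0 were called. At an unadjusted p under 0.05, 3 were higher and 3 lower, beside 5.65% and 4.93% of all tested genes. Their median log2 fold change was -0.07. The Gi subunits Gnai2 (175 CPM per kilobase) and Gnai3 (36.5) and the arrestin Arrb2 (28.0) were the highest. Gnai2 was at 664, 683 and 727 CPM in dFLEx tumors and at 694 and 546 CPM in KP tumors (log2 fold change 0.16 ± 0.50 SE, adjusted p = 0.967). The largest fitted differences were those of the adenylyl cyclases Adcy2 (log2 fold change 3.30 ± 0.80 SE, adjusted p = 0.169) and Adcy8 (-3.24 ± 1.16 SE, adjusted p = 0.362) and of the phospholipase Plcb4 (-2.87 ± 1.01 SE, adjusted p = 0.345). Plcb4 was at 73.2 CPM in KP 3800 and at 6.38 CPM in KP 3802, which lay within the dFLEx range of 2.49 to 8.55 CPM. Of 13 peptide-degrading enzymes, all were tested, and 0 were called and 0 had an unadjusted p under 0.05. Their median log2 fold change was -0.81, and Cpe, Thop1 and Anpep were the highest per kilobase. The largest fitted differences were those of the carboxypeptidases Cpn1 (log2 fold change -3.29 ± 2.30 SE, adjusted p = 0.781) and Cpe (-1.64 ± 0.81 SE, adjusted p = 0.574) and of neprilysin, Mme (-1.21 ± 1.28 SE, adjusted p = 0.882). The groups overlapped for each of these genes, and the KP tumors lay far apart. In KP 3800 and KP 3802, Cpn1 was at 0 and 1.87 CPM, Cpe at 526 and 124 CPM and Mme at 222 and 8.33 CPM.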

How the data were processed

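Total RNA of flash-frozen tumors was split into duplicates for rRNA-depleted, paired-end libraries. The deposited values are raw counts per gene, made by the authors with Trimmomatic 0.39, STAR 2.7.10a (mm39 with the construct) and featureCounts (Subread 2.0.3), with mates counted as reads, without strand, and with multi-mapped reads and reads over several features not counted. Of 10 labelled libraries, 9 had a column, and the other library of KP 3802 was not analysed here. Symbols came from GENCODE M39 (98.71% of features).

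Duplicates are technical, so their counts were summed by tumor (n = 3 and 2). Genes were filtered with filterByExpr, scaled by TMM and tested with edgeR 4.0.16 quasi-likelihood fits (R 4.3.3), with Benjamini-Hochberg adjustment over all genes, a threshold of 0.05 and 2-sided p-values. The step was tested on simulated counts with the same spread for every gene and no outlying tumor, so outlying tumors were not covered. DESeq2 1.42.0 and other settings were alternatives. Standard errors (SE) were taken from the size of each fitted difference and its F statistic. P-values measure the spread between tumors, whose number limits precision, and bounds at 3 counts cover counting error only.

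The receptor list and the other lists were chosen with earlier results of these data known. All 37 receptors are named. From each other pathway list the genes past the threshold, the 3 highest per kilobase and the 3 with the largest fitted differences are named. Precursors named beside their receptor (Hcrt, Agt, Avp, Crh, Pomc, Vip, Adcyap1, Kng1 and Kng2) were chosen after their values were seen. Of 32 listed precursors 31 matched a feature. One part of the KP genotype label is not reported here. Promoter windows came from the RefSeq table, and bases from GRCm39.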

Additional observations from a re-analysis of the deposited data

How the results depend on the processing

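With 3 and 2 tumors, counts of calls moved with the filter, the unit of replication and single tumors. Hcrtr1 was called under every setting that kept all 5 tumors. With libraries as independent samples, 4 receptor genes were higher and 4 lower of 3344 genes called by edgeR, and 6 and 5 of 4838 by DESeq2. DESeq2 on tumor sums, run without the edgeR filter on low counts, gave 3 and 4 of 1408. Without that filter, edgeR called the same 3 and 4 of 880. The replicate block (R1 or R2 as a term) gave 3 and 4 of 2476, but the number only names duplicates of 1 RNA and pairs no tumors. With 1 tumor left out, 0 to 1 receptor genes were higher, 0 to 3 lower and 0 to 414 of all genes were called. The 0 without 170019 or 170024 stand beside 1939 and 1414 genes at an unadjusted p under 0.05 (edgeR). DESeq2 size factors, library totals and subtraction of the background level each kept 1 receptor gene higher and 0 lower, with 49, 34 and 63 calls in all. Under library totals 14 of the 34 calls were higher, beside 25 of 45 with TMM, and the median of all genes was -0.47 in place of -0.18. Of 28 tested receptor genes 8 changed sign under some setting. With 1 tumor left out, log2 fold changes ran from -0.20 to 6.71 (Npy2r), -1.53 to 0.41 (Galr3), -3.31 to 3.51 (Oprm1), -0.38 to 1.46 (Oprl1), -2.50 to 0.66 (Mc1r), -4.27 to 1.42 (Adcyap1r1), -1.01 to 0.12 (Nmbr) and -2.23 to 3.13 (Agtr2). Oprl1 was -0.05 under library totals, and Agtr2 was 0.02 with libraries as samples and 0.42 with the replicate block. Starts chosen after the data were seen (Ensembl canonical) gave 2 receptor genes with an octamer in place of 1. The causes were not tested.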

Other observations

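Among the peptide receptors outside the set, Aplnr, the apelin receptor known from endothelial cells, was at 39.4, 36.2 and 49.7 CPM in dFLEx tumors and at 11.5 and 10.0 CPM in KP tumors (log2 fold change 1.96 ± 0.59 SE, edgeR adjusted p = 0.256). The 8 endothelial markers summed to 541, 489 and 594 CPM in dFLEx tumors and to 171 and 268 CPM in KP tumors, and their part in the Aplnr level was not tested. Pth1r, the parathyroid hormone receptor of bone and growth plate, was at 41.9, 39.7 and 13.4 CPM in dFLEx tumors and at 1.69 and 5.28 CPM in KP tumors (log2 fold change 3.19 ± 0.88 SE, edgeR adjusted p = 0.215). The 6 chondroid markers summed to 748, 1050 and 2510 CPM in dFLEx tumors and to 156 and 174 CPM in KP tumors. The dFLEx tumor with the highest chondroid sum, 170025, had the lowest Pth1r level of the 3. The part of chondroid cells in the Pth1r level was not tested. Pth1r shared 3.25% of its exonic bases with Myl3, a muscle gene.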
